A study of Rattus norvegicus with 6 samples.

Results

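Carbonic anhydrases were followed in rat liver through 8 genes, Car1, Car2, Car3, Car4, Car5a, Car8, Car12 and Car14, out of 14506 genes named on the array. A gene was taken where its symbol stood alone in the platform annotation of a probe set. Each of the 8 had 1 such probe set, and all 8 passed the filter on dim probe sets, a mean over the arrays above log2 5.14, which 20450 of 29214 probe sets passed. The genes were selected on their log2 difference between high and normal protein, in which Car12 and Car2 stood out. Values for that contrast are therefore given as a description without a test.

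Adult male Wistar rats were adapted for 10 days to a normal protein diet and then ate 1 of 6 diets for 33 to 37 days. The diets paired normal protein (NP) or high protein (HP) with a low fat background, a high sucrose low fat background (HS) or a high sucrose high fat background (HS-HF). The labels' source fields speak of mice, while the organism and growth fields give rats. All rats were killed in the fed state, 2 h after a meal of 87.6 kJ, and liver RNA of 5 rats a diet was pooled for 1 array, with 30 rats in all. A pool averages its rats, so the data hold no spread between animals, and the small number of arrays limits the precision. The comparisons address how dietary protein bears on the response of the liver to sucrose and fat. Medians of the 6 arrays spanned 0.033 log2 units, and pairs of arrays correlated at 0.9949 to 0.9964. Albumin (Alb), which defines hepatocytes, lay between log2 13.78 and 13.85. In such tissue RNA, fewer cells of a type and less RNA per cell cannot be told apart.

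Carbonic anhydrases are zinc enzymes that interconvert carbon dioxide and bicarbonate with release or uptake of a proton. In the liver, bicarbonate is a substrate of carbamoyl phosphate synthesis in the urea cycle, of pyruvate carboxylation in gluconeogenesis and of acetyl-CoA carboxylation in fatty acid synthesis. The isoforms differ in place: Car1, Car2 and Car3 are cytosolic, Car5a is mitochondrial, Car4 is anchored to the cell surface, and Car12 and Car14 span the membrane with the catalytic domain outside. Car8 is a related cytosolic protein without carbon dioxide hydration activity. In the RefSeq gene order of assembly GRCr8, Car2, Car3, Car1 and Car13 lie next to each other on 1 chromosome.

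RefSeq promoter windows, from 250 bases before to 50 bases after an annotated start (build GRCr8), were found for 4 of the 8 genes, Car12, Car5a, Car4 and Car14. The stretches before the start are shown for Car12 and Car5a, the 2 of these genes that were higher on all high protein arrays. For Car12 the RefSeq gene record begins 92 bases before that start, and the stretch shown ends where the record begins. For Car12 a second stretch is shown, 29 bases long, which covers bases 11 to 39 after the start. Each is written 5′ to 3′ on the gene's strand, and capitals mark motif matches.
Car12, chr8:76169565-76169722, plus strand: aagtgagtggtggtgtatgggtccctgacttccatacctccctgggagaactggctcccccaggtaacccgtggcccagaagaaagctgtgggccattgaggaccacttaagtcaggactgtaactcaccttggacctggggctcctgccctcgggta
Car12, chr8:76169825-76169853, plus strand, 29 bases after the start: ACGTGcacgctttggtcccaggctACGTG
Car5a, chr19:66911487-66911736, minus strand: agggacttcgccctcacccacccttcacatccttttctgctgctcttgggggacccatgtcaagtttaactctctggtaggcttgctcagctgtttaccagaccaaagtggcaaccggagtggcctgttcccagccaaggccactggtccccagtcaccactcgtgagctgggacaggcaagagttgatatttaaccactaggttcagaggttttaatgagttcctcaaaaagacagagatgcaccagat

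In the windows of 300 bases, 5 motifs were searched on both strands: ACGTG (the core of the hypoxia response element), TGACG (a part of the cAMP response element), CCAAT (the CCAAT box), TATAAA (the TATA box) and AGAACA (a part of the glucocorticoid response element). The Car12 window held ACGTG at bases 11 and 35 after the start, both in the second stretch, and none of the other 4 motifs. Of 33469 promoter windows, 19.3 percent held ACGTG at least once and 7.62 percent 2 or more times. The Car5a window held none of the 5. Among all windows, 21.2 percent held TGACG, 37.5 percent CCAAT, 14.2 percent TATAAA and 20.7 percent AGAACA. The Car4 window had 2 ACGTG matches and 1 TATAAA match, and the Car14 window had 1 ACGTG match. ACGTG and TGACG can overlap. A match describes these letters only.

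Across diets, Car12, Car2 and Car5a were higher on every high protein array than on any normal protein array, Car3 was lower on every high protein array, and the other 4 overlapped. Of all probe sets past the filter, 7.35 percent had every high protein array above every normal protein array, and 7.58 percent had them below. Differences of 1.5-fold or more upward in all 3 backgrounds were seen for Car12 and Car2, against 0.112 percent of all probe sets. The sign was upward in all 3 backgrounds for 3 genes (14.6 percent of probe sets) and downward for Car3 and Car14 (14.9 percent). These values chose the genes, so nothing is read from the counts. The median protein difference of the 8 genes was 0.02 on the log2 scale, and that of all probe sets past the filter was -0.0014.

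Car12, a membrane carbonic anhydrase that faces the outside of the cell, read log2 5.36 on the NP array, 5.40 on NP-HS and 5.30 on NP-HS-HF. On high protein it read 6.94 on HP, 7.73 on HP-HS and 6.99 on HP-HS-HF. The normal protein arrays sat together near the lower end of the probe sets that passed the filter, and all 3 high protein arrays lay above them with a gap of 1.55. High protein exceeded normal protein 3.01-fold on low fat, 5.03-fold on HS and 3.24-fold on HS-HF, a mean log2 difference of 1.87 ± 0.40 (SD, n = 3 backgrounds). By absolute mean difference Car12 ranked 1 among the 20450 probe sets, and by background it ranked 7, 3 and 8 in the same order. Its total range over the diets was 5.4-fold. The deposited table holds no detection calls, so whether Car12 was detected on the normal protein diets cannot be given.

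Car2, the fast cytosolic enzyme, read log2 7.68 on NP, 7.50 on NP-HS and 7.35 on NP-HS-HF. With high protein it read 8.66 on HP, 8.50 on HP-HS and 8.19 on HP-HS-HF. The protein levels did not overlap, with a gap of 0.50, and within each protein level the low fat array was highest and the high sucrose high fat array lowest. The protein difference was 1.97-fold, 2.01-fold and 1.79-fold on low fat, HS and HS-HF, with a log2 mean of 0.94 ± 0.09 (SD, n = 3 backgrounds). Its rank by absolute mean difference was 20 of 20450.

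Car5a, the mitochondrial isoform of liver, read log2 7.79, 7.67 and 7.91 on NP, NP-HS and NP-HS-HF, and 8.16, 8.12 and 8.28 on the high protein counterparts. The groups were separated by 0.21, and in both of them the high sucrose array was lowest and the high sucrose high fat array highest. High protein was 1.29-fold, 1.36-fold and 1.29-fold above normal protein, a log2 mean of 0.40 ± 0.04 (SD, n = 3 backgrounds). This was the smallest spread between backgrounds among the 8 genes. Its rank by mean difference was 314 of 20450.

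**Figure D1:**
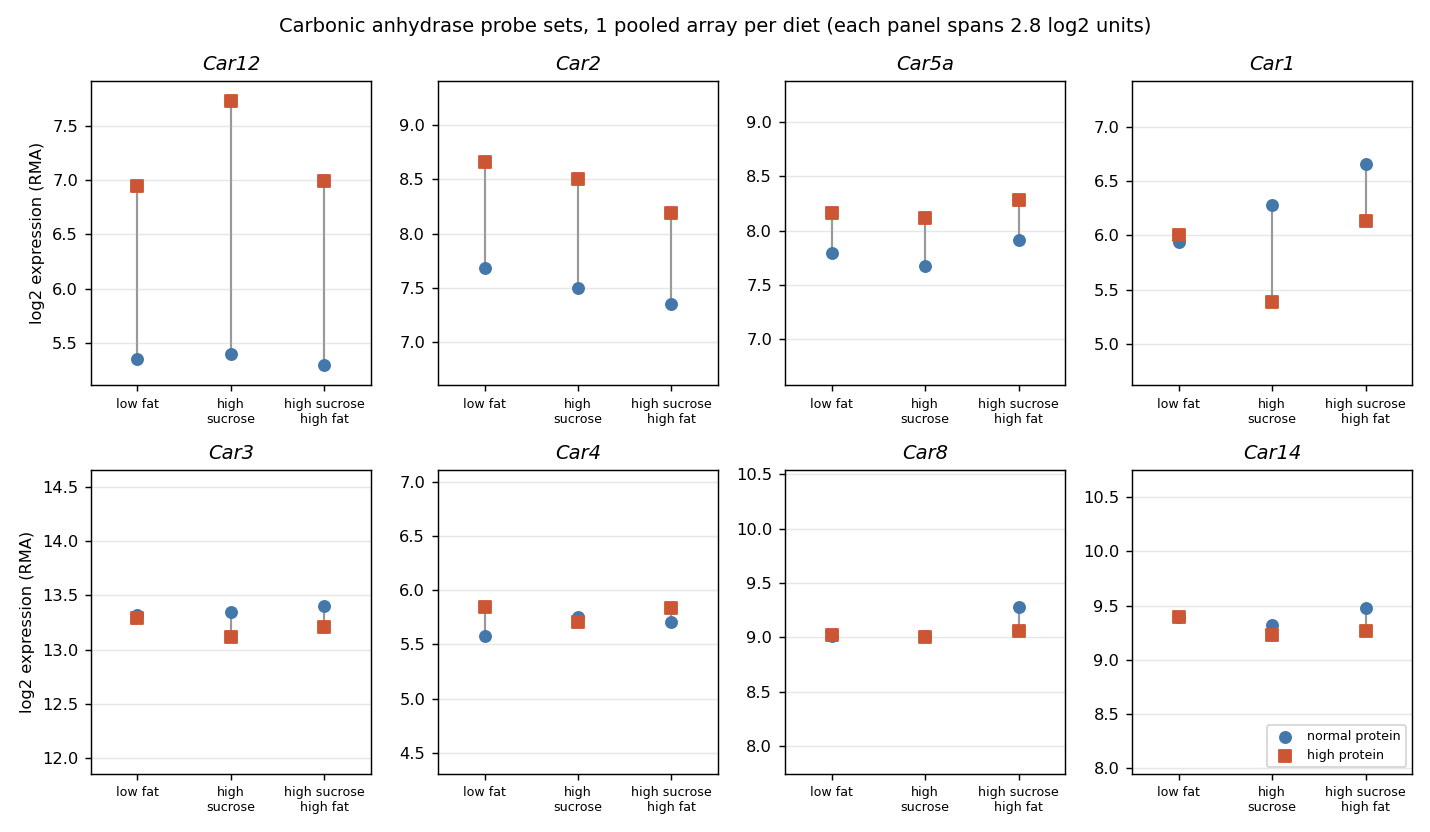
Log2 expression (RMA) of the 8 carbonic anhydrase probe sets on the y axis, by dietary background on the x axis. Blue circles are normal protein and red squares high protein, 1 pooled array each, joined by a grey line within a background. Each panel spans the same log2 range. The gap is widest for Car12 on high sucrose (7.73 against 5.40), and Car1 turns its order between low fat and high sucrose.

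Car1, a cytosolic isoform best known from red cells and gut, was lower with high protein on both sucrose backgrounds. It read log2 5.94 on NP, 6.28 on NP-HS and 6.66 on NP-HS-HF, against 6.001 on HP, 5.39 on HP-HS and 6.13 on HP-HS-HF. High and normal protein overlapped, with the NP array below both HP and HP-HS-HF, and the low fat arrays differed by 0.06. The groups separated when the NP array was left out. On high sucrose the high protein array was lower by 0.89 on the log2 scale (1.86-fold), where 0.523 percent of probe sets were lower by 1.5-fold or more. On high sucrose with high fat it was lower by 0.53 (1.44-fold). Car1 thus had a mean protein difference of -0.45 ± 0.48 (SD, n = 3 backgrounds), smaller than the spread between backgrounds.

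Car1 is an abundant protein of red cells, so red cell markers are given beside it. Of 15 written symbols, 9 were measured and 7 passed the filter, with Ahsp and Rhag below it. Without detection calls, whether these markers were detected cannot be given. The summed linear signal of the 9 was 3279 to 3891 on the normal protein arrays and 3332 to 4082 on the high protein arrays, which overlap. The beta globin Hbb read log2 10.89, 11.18 and 11.08 on the normal protein arrays and 11.20, 10.92 and 11.19 on the high protein arrays in the same order of backgrounds. On high sucrose, high minus normal protein was -0.89 for Car1 and between -0.26 and -0.15 for 7 of the 9 markers, among them Hbb (-0.26) and the heme synthesis enzyme Alas2 (-0.18). It was 0.26 for the membrane skeleton protein gene Epb42 and 0.19 for Rhag. Epb42 was the 1 of the 7 markers past the filter with all high protein arrays above, as were 7.35 percent of all probe sets. The largest mean protein differences of the list were those of Epb42 (0.30), Hemgn (0.16) and Hbb-b1 (0.08). On low fat Hbb was at 0.31 and Car1 at 0.06, and on NP-HS-HF, where Car1 was highest, Hbb lay between its other normal protein arrays. The part of red cells in the Car1 values was not tested.

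**Figure D2:**
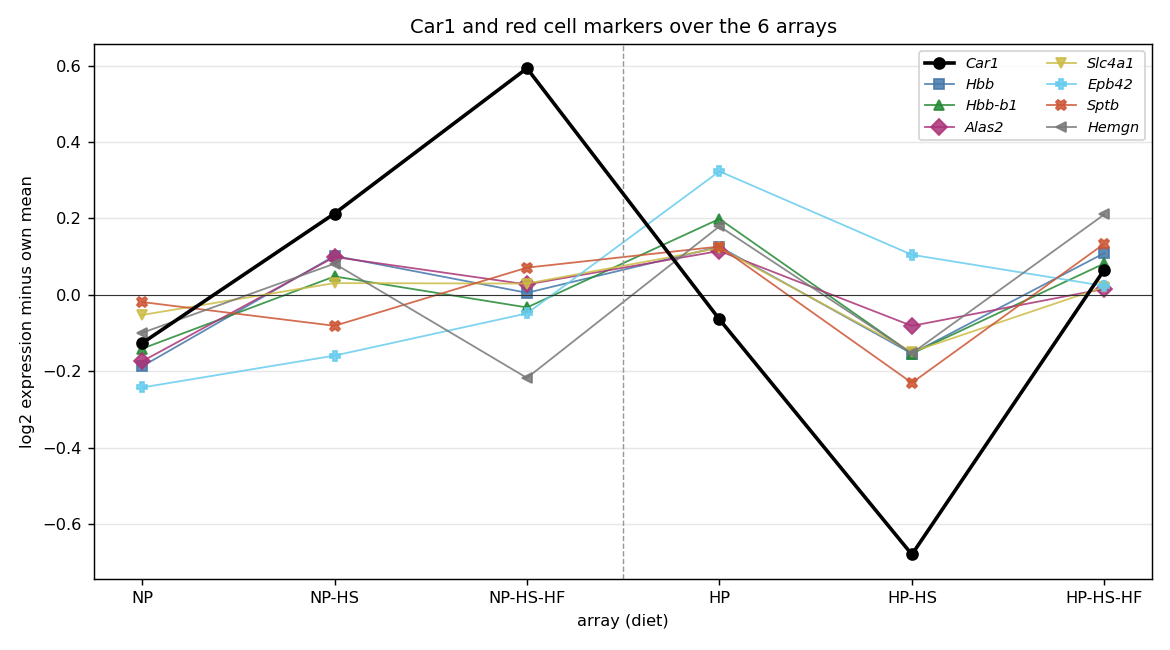
Log2 expression minus each gene's own mean over the 6 arrays (y axis) on each array (x axis, normal protein left of the dashed line), for Car1 in black and the 7 red cell markers past the filter in colours. Car1 spans 1.27 on the log2 scale, whereas Hbb spans 0.31 and Epb42, the widest of the markers, 0.57.

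The other 4 genes varied over the diets by less than 1.25-fold. Car3, an abundant cytosolic isoform of low activity in liver, muscle and fat, read log2 13.32, 13.34 and 13.40 on normal protein and 13.29, 13.11 and 13.21 on high protein. Each high protein array was below each normal protein array, by as little as 0.03 at the nearest, and the mean difference was -0.15 ± 0.11 (SD, n = 3 backgrounds). Among markers of tissues that also make Car3, the summed linear signal of 9 skeletal muscle genes was 551 to 583 on normal and 545 to 576 on high protein arrays. That of 7 adipose genes was 1551.5 to 1727 and 1647 to 1917. Most of the adipose sum was Cidec, at log2 10.02 to 10.37 over the 6 arrays, while Adipoq read 5.17 to 5.39. Of the 9 muscle genes, 5 passed the filter. The largest mean protein differences were those of Ckm (-0.11), Mb (0.11) and Tnnc2 (-0.08) for muscle, and of Lipe (0.28), Fabp4 (0.26) and Lep (0.11) for adipose tissue. Their part in the Car3 values was not tested.

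Car14, a membrane isoform of hepatocytes, read log2 9.40, 9.33 and 9.48 on normal protein and 9.39, 9.23 and 9.26 on high protein. Its protein difference was -0.11 ± 0.10 (SD, n = 3 backgrounds). Car8 stayed between 9.00 and 9.06 on 5 arrays and read 9.28 on NP-HS-HF, so high minus normal protein came to 0.0037 on low fat, -0.0093 on HS and -0.22 on HS-HF. Car4, which is also found on endothelium, read 5.58, 5.76 and 5.71 on normal protein and 5.84, 5.71 and 5.84 on high protein, a difference of 0.11 ± 0.16 (SD, n = 3 backgrounds). These differences of Car4 and Car8 were smaller than their spread between backgrounds.

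**Figure D3:**
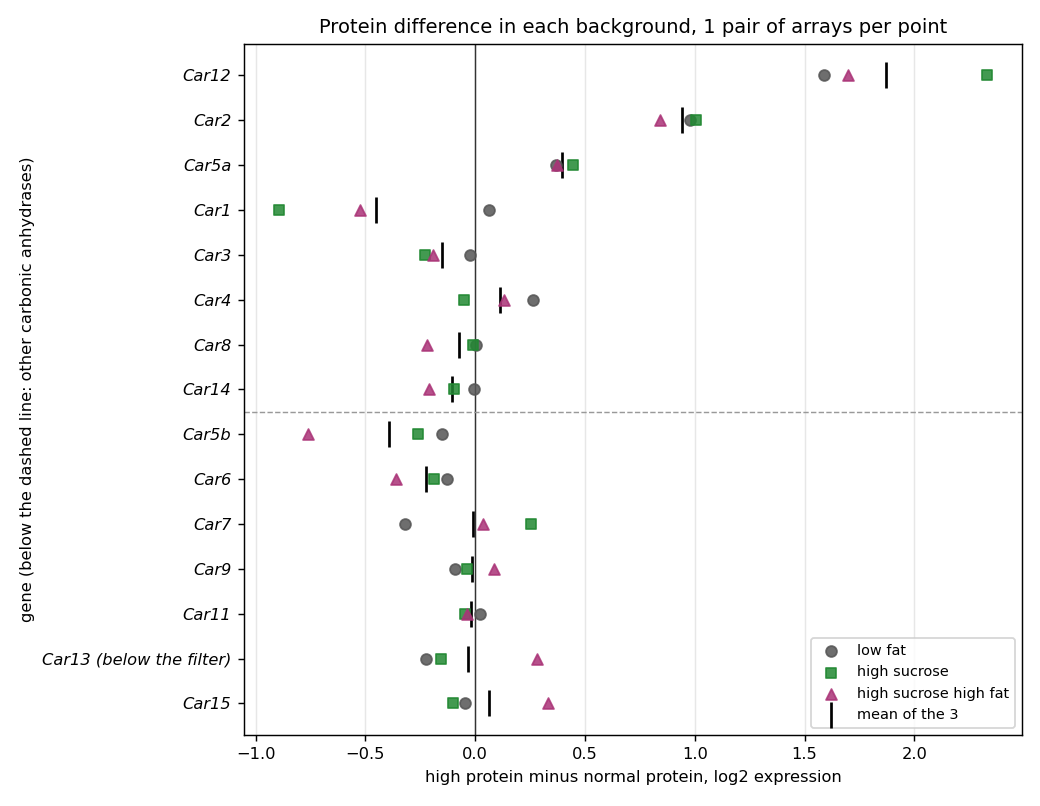
High protein minus normal protein on the log2 scale (x axis) for each carbonic anhydrase (y axis), with 1 point per background and a bar at the mean of the 3. The 8 genes described stand above the dashed line and 7 other family members below it. Car12 lies between 1.59 and 2.33, and the 3 points of Car5a lie within 0.08 of each other.

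Of 8 further family members written in the list, 7 had a probe set and 6 passed the filter. Car5b, the other mitochondrial isoform, read log2 6.43, 6.59 and 6.89 on normal protein and 6.27, 6.33 and 6.13 on high protein. It was lower on each high protein array, with differences of -0.15, -0.26 and -0.76, a mean of -0.39 ± 0.32 (SD, n = 3 backgrounds). Car6, the secreted isoform, was also lower on each high protein array (-0.23 ± 0.12, SD, n = 3). The means of Car7, Car9, Car11 and Car15 lay between -0.02 and 0.06, and Car13, the neighbour of Car1, was below the filter at log2 4.09 to 4.41. Both mitochondrial isoforms were thus separated by protein level, Car5a upward, as were 7.35 percent of all probe sets past the filter, and Car5b downward, as were 7.58 percent. Car5a was selected on this contrast, so nothing is read from their opposite directions. Their probe sets' levels are not compared, since signal per probe set differs between genes.

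High sucrose was set against low fat at equal protein with limma on all 6 arrays, with protein level and background as terms. Of the 8 genes, 0 passed a Benjamini-Hochberg adjusted p of 0.05 (lowest adjusted p = 1.0) and 0 had an unadjusted p under 0.05. Among all 20450 probe sets 0 percent were called, and 3.02 percent had an unadjusted p under 0.05. Car12 was at log2 0.41 ± 0.18 SE, with a 95 percent interval of -0.01 to 0.84, made of 0.04 at normal and 0.78 at high protein. Without the HP-HS array this effect was 0.07, and without the NP-HS array 0.76. Car2 was at -0.17 ± 0.09 SE, with -0.19 at normal and -0.16 at high protein. Car1 had 0.34 at normal and -0.62 at high protein, so its fitted -0.14 ± 0.21 SE averages opposite values, and it became 0.25 without the HP array and 0.19 without the HP-HS array. Fitted effects of the other 5 lay between -0.12 and 0.02.

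At high protein, the high sucrose step for Car12 exceeded 1.5-fold upward, as did 0.518 percent of all probe sets, and that for Car1 exceeded it downward, as did 0.372 percent. At normal protein none of the 8 genes differed by 1.5-fold with sucrose (0.866 percent of probe sets in either direction). Whether the sucrose step depends on protein was not tested, because an interaction leaves no residual degrees of freedom.

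Fat added to sucrose, HS-HF against HS at equal protein, also gave 0 of the 8 genes past the limma test (lowest adjusted p = 0.972) and 0 percent of all probe sets. An unadjusted p under 0.05 was reached by 3 of the 8, Car1, Car2 and Car5a, and by 4.95 percent of all probe sets. That count of 3 was 0 without the HP-HS array, 1 without HP-HS-HF and 2 with any of the other 4 arrays left out. Car1 was higher with fat at both protein levels, 0.38 at normal and 0.75 at high, fitted at 0.56 ± 0.21 SE with an interval of 0.07 to 1.06. Without the HP-HS array it was 0.23, and without the NP-HS array 0.89. Car2 was lower at both levels (-0.15 and -0.31, fitted -0.23 ± 0.09 SE), and Car5a was higher at both (0.24 and 0.16, fitted 0.20 ± 0.08 SE). Car12 was at -0.42 ± 0.18 SE, with -0.10 at normal and -0.74 at high protein. For Car12 it was -0.07 without the HP-HS array and -0.76 without the NP-HS array. At high protein, the added fat step exceeded 1.5-fold upward for Car1, as did 0.68 percent of probe sets, and downward for Car12, as did 0.592 percent.

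High sucrose with high fat against low fat gave 0 of 8 past the limma test (lowest adjusted p = 0.783) and 0 percent of all probe sets. Car2 was the 1 gene of the 8 with an unadjusted p under 0.05, which 5.18 percent of all probe sets reached. It was at -0.41 ± 0.09 SE (1.32-fold, interval -0.61 to -0.20), with -0.34 at normal and -0.47 at high protein. Car12 was at -0.01 ± 0.18 SE, with an interval of -0.43 to 0.42. Car1 was at 0.42 ± 0.21 SE, with 0.72 at normal and 0.13 at high protein. Without the NP array it was 0.039, and without the HP array 0.81. At normal protein its step exceeded 1.5-fold upward, as did 0.533 percent of probe sets. This effect shares arrays with both effects above, so the 3 are not separate results. For Car3, Car4, Car5a, Car8 and Car14, the intervals of all 3 effects lay between -0.33 and 0.39. They are intervals of the fitted average over both protein levels, so they do not bound the step at either level.

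**Figure D4:**
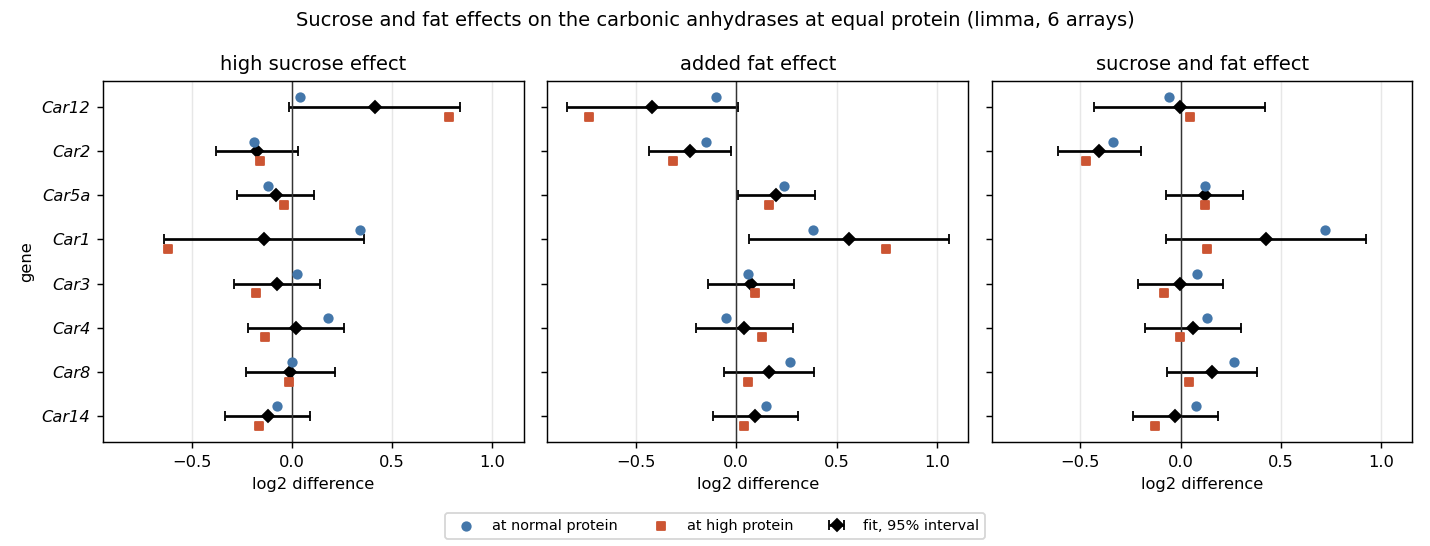
Log2 differences (x axis) of the 8 genes (y axis) for high sucrose, added fat, and both. Black diamonds with bars are the limma estimates with 95 percent intervals over 6 arrays, blue circles the difference at normal protein and red squares that at high protein, 1 pair of arrays each. For Car1 the sucrose values lie on opposite sides of 0, at 0.34 and -0.62.

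Named genes with the profiles most like each of the 4 genes that varied by 1.5-fold or more (6.47 percent of probe sets did; 3 of the 4 varied by 2-fold or more, as did 1.28 percent) were found by the root mean square difference of centred log2 values over the 6 arrays, among 479 other genes that varied as much. For Car12, whose own deviation was 0.97, these were Spsb4, a SOCS box protein (0.25), Noct, nocturnin (0.39), and Wsb1, another SOCS box protein (0.50). Spsb4 read log2 6.48, 6.60 and 6.72 on normal protein and 8.03, 8.33 and 8.14 on high protein. Car2 itself was at rank 6 for Car12, with 0.55, whereas Car12 was at rank 242 of 479 for Car2 at that same distance. For Car2, whose own deviation was 0.50, they were the ubiquitin ligase Trim36 (0.14), the polo-like kinase Plk3 (0.15) and Atp1b1, the beta subunit of the sodium pump (0.18).

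The genes closest to Car5a, whose own deviation was 0.22, were the adenosine receptor gene Adora2a (0.03), Kbtbd8 (0.05) and Asl, argininosuccinate lyase of the urea cycle (0.06). Asl read log2 10.91, 10.77 and 10.97 on normal protein and 11.30, 11.35 and 11.46 on high protein. The genes closest to Car1, whose own deviation was 0.38, were the fatty acid binding protein Fabp7 (0.18), the NADPH oxidase Nox4 (0.19) and Rnase13 (0.19). Fabp7 was lowest on the HP-HS array too, at log2 8.17 against 8.89 to 9.19 on the other 5. The distances are smaller where a gene varies less, and they are descriptions without a test.

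**Figure D5:**
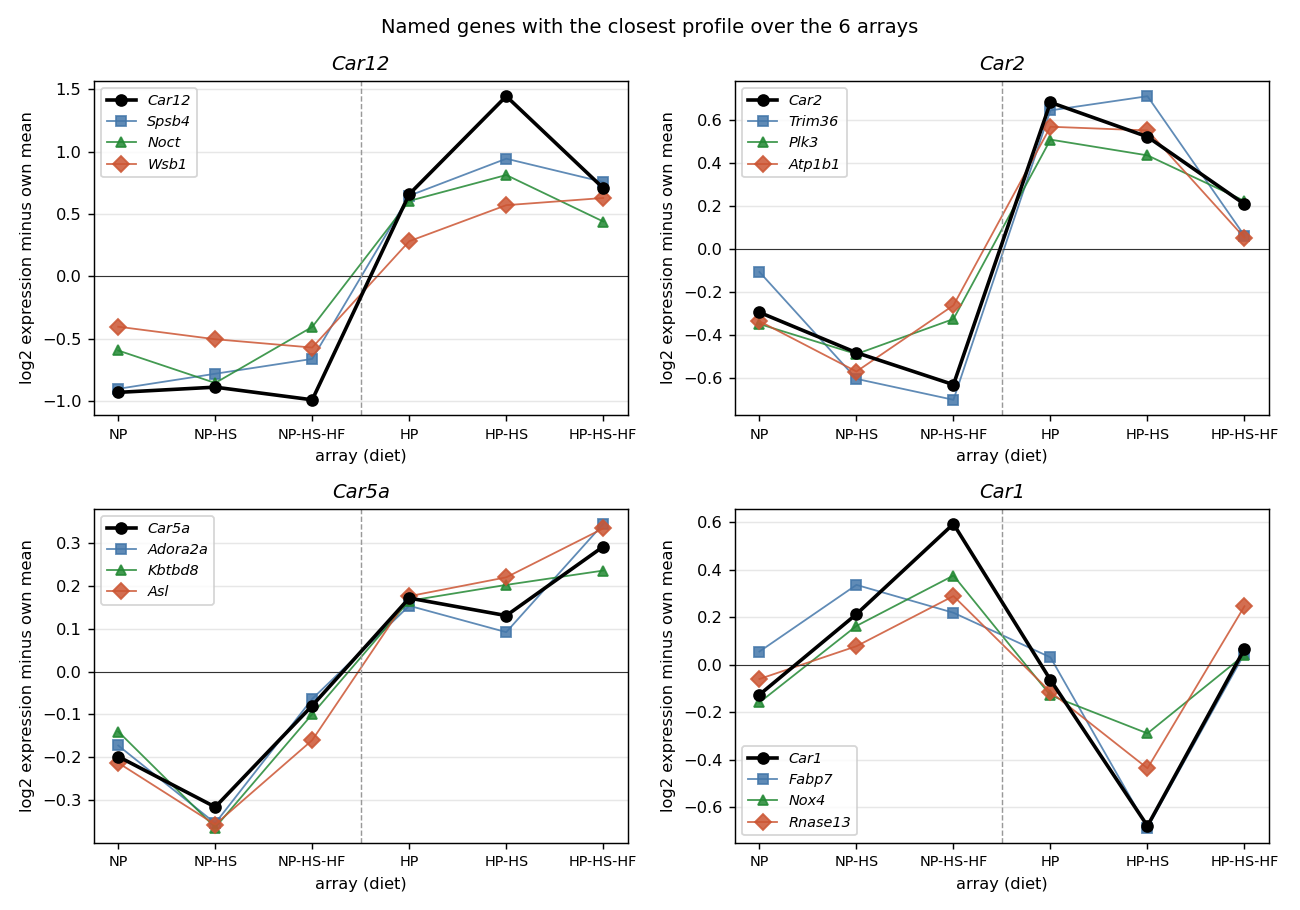
Log2 expression minus own mean (y axis) on the 6 arrays (x axis, normal protein left of the dashed line) for Car12, Car2, Car5a and Car1 in black and their 3 closest named genes in colours. Car12 lies higher on HP-HS than any of its 3 neighbours, and the genes beside Car5a follow it within 0.06 (root mean square).

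Genes that move or use bicarbonate were taken from fixed lists and read against the same background, 7.35 percent with all high protein arrays above and 7.58 percent with them below. Of 9 bicarbonate-using enzymes, all past the filter, 1 was above and 2 were below. Pyruvate carboxylase, Pc, read log2 11.72 on each normal protein array and 11.46 to 11.51 on high protein (-0.24 ± 0.03, SD, n = 3 backgrounds). Acetyl-CoA carboxylase 1, Acaca, was lower by 0.52 ± 0.21 (SD, n = 3), and Mccc2 of leucine breakdown was higher on each high protein array (0.20 ± 0.15, SD, n = 3). Acacb, the mitochondrial acetyl-CoA carboxylase, was at 0.27 ± 0.26 (SD, n = 3), with overlapping groups. Cps1, the carbamoyl phosphate synthetase, stayed between log2 13.10 and 13.19. The median of the list was -0.01.

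Of 13 bicarbonate and anion exchangers past the filter, out of 20 written, 1 was above and 2 below. The sodium bicarbonate cotransporter Slc4a4 read log2 9.80, 9.65 and 9.63 on normal protein and 9.83, 9.93 and 9.96 on high protein. Its difference was 0.03 on low fat, 0.27 on HS and 0.33 on HS-HF. The anion exchanger Slc26a6 was lower on each high protein array (-0.20 ± 0.09, SD, n = 3), as was Slc4a2 (-0.06 ± 0.04, SD, n = 3). Slc26a8 was at -0.15 ± 0.15 (SD, n = 3), with a list median of -0.02. Among 10 sodium-proton exchangers and proton-coupled monocarboxylate carriers past the filter, 0 were above and 1 below, Slc16a7 (-0.07 ± 0.05, SD, n = 3). Slc9a7 (-0.12), Slc16a8 (0.11) and the lactate carrier Slc16a1 (0.11) had the largest differences of that list, whose median was -0.02.

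Of 5 bicarbonate and proton sensing genes past the filter, Ptprg was above (0.09 ± 0.12, SD, n = 3), while Gpr65 (-0.15) and the bicarbonate-sensitive adenylyl cyclase Adcy10 (0.08) overlapped. Of 8 ammonium and glutamine genes past the filter, 2 were above and 0 below, with a median of 0.15. The glutamate transporter Slc1a2 was higher by 0.93 ± 0.22 (SD, n = 3) and the liver glutaminase Gls2 by 0.27 ± 0.17 (SD, n = 3), and the ammonium transporter Rhbg, at 0.32 ± 0.12 (SD, n = 3), overlapped between protein levels. For sucrose, added fat, and both, 0 genes of any of these lists passed the limma test, with lowest adjusted p between 0.800 and 1.0.

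Several cell type markers differed by protein level as well, beside the values of Car12, Car2 and Car5a. Counts of markers with all high protein arrays above or below are read against 7.35 and 7.58 percent of all probe sets. Of 10 macrophage markers 5 were above, with summed linear signals of 3641 to 3982 on normal and 4074.5 to 4677 on high protein arrays. The largest mean log2 differences among them were those of Cd5l (0.35) and of the complement genes C1qa (0.29) and C1qc (0.24). Of 11 pericentral hepatocyte genes 5 were above, with sums of 22191.5 to 24767 and 24819 to 27873. Slc1a4, which carries neutral amino acids, stood at 1.53 ± 0.74 (SD, n = 3), Slc1a2 at 0.93 and the transcription factor Tbx3 at 0.62. These were the 3 largest of the list, whose median was 0.11, and Nr1i3 (-0.05) and Lgr5 (-0.06) were below 0.

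Of 10 periportal hepatocyte genes 6 were above and 1 below, with sums of 36684 to 38272 and 40812 to 42681. The largest differences were those of Sds, serine dehydratase (0.50), Asl (0.49) and Pck1, the gluconeogenic carboxykinase (0.36). The 1 below was Hsd17b13 (-0.30), Cdh1 was at -0.03, and the list median was 0.20. Of 6 bile duct markers past the filter 2 were above, and the sums over all 7 measured were 399 to 439 and 438 to 477. Krt19 was at 0.26, Epcam at 0.17 and Cldn4 at 0.17. Of 7 endothelial markers 1 was above, with sums of 2780 to 2998 and 2938 to 2989, and Cdh5 was at 0.18, Pecam1 at 0.10 and Gpihbp1 at -0.06. Of 6 general hepatocyte markers 0 were above and 1, Ttr (-0.03), below, with Apoa1 at 0.04 and Alb at -0.02. Slc1a2 and Rhbg stand in the pericentral list as well as in the ammonium list, and Gls2 and Cps1 in the periportal list as well. Whether each of these markers was detected cannot be given without detection calls, and their part in the carbonic anhydrase values was not tested.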

How the data were processed

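Liver RNA pools of 5 rats (1500 ng a rat) were hybridised to 6 whole-transcript arrays, 1 for each diet, per the labels. The authors deposited 1 value per probe set on the log2 scale, made by RMA, per the submitters' processing notes. Neither the RMA version nor a genome build is given in the sources used here. Values ranged from 2.40 to 13.92. Gene names came from the platform annotation, in which 15310 probe sets had 1 symbol, 323 had several and 13581 were not listed, and 15279 matched RefSeq by Entrez number. Promoters came from RefSeq (GRCr8).

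Probe sets with a mean above the 30th percentile (log2 5.14) entered 1 limma model (limma 3.58.1, R 4.3.3) of all 6 arrays, with protein level and background as additive terms, which leaves 2 residual degrees of freedom. Intervals are 95 percent, and a call is an adjusted p (Benjamini-Hochberg over 20450 probe sets) under 0.05. Each SD of a protein difference is taken over the 3 backgrounds. No diet has a replicate pool, so the p-values rest on how far these arrays depart from the additive terms. That departure mixes any protein by background difference with array noise, which may be technical. It is moderated by a prior from all probe sets with 4.37 degrees of freedom. The fit was run on simulated arrays with independent noise, in which 200 probe sets were changed. They held no protein by background difference, so how such differences bear on the p-values was not tested.

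The genes, lists, and alternatives were chosen with earlier results of these data known. Named were all 8 genes, from each list members past a test and the 3 with the largest protein difference, and for each gene varying by 1.5-fold the 3 closest profiles. In the list of other carbonic anhydrases, all measured genes were named. From the remaining lists, other genes named were chosen after their values were seen. They are those not overlapping between protein levels in the bicarbonate lists, and Cps1, Hbb, Alas2, Rhag, Ahsp, Nr1i3, Lgr5, Hsd17b13, Cdh1, Cidec and Adipoq. Alternatives were other filters, scalings and priors, each array left out and the 4 arrays of a contrast alone. Diet composition is not used here.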

Additional observations from a re-analysis of the deposited data

Results flagged for a closer look

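Car1 was listed because the same contrast had opposite signs at different levels of the other factor, with the values 1.5-fold or more apart. The difference between the levels was not tested in any of the 3 cases, since each rests on 1 array a diet. High minus normal protein was 0.06 for the low fat pair and -0.89 for the HS pair, which lie 0.95 apart on the log2 scale. Against high sucrose with high fat, at -0.53, the low fat value lay 0.59 apart. The sucrose step was 0.34 at normal and -0.62 at high protein, a difference of -0.95. This is the same difference of 4 arrays as the first, so both are 1 pattern. It includes the HP-HS array, where Car1 read near the filter on dim probe sets. Outlying samples were not looked for, because each diet has 1 array.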

How the results depend on the processing

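Rats or replicates could not be paired between diets because each diet has 1 array and the labels give no replicate numbers. Protein levels were compared within each background, and backgrounds at equal protein. For each of the sucrose, added fat, and combined effects, 0 of the 8 genes were called under every alternative run. Averaging probe sets of a symbol was not run, as each gene had 1, and at the 50th percentile filter Car1 and Car4 were not tested. The protein differences kept their signs under every alternative, with arrays left out between 1.64 and 2.01 for Car12, 0.91 and 0.99 for Car2 and 0.37 and 0.41 for Car5a. The count of genes with all high protein arrays above ranged from 3 to 4 with an array left out (Car4 joined without HP-HS). The count of those below ranged from 1 to 2 (Car1 joined without NP, Car14 without NP-HS or without HP). Leaving out an array can only keep or raise either count, and it cannot turn the sign of a gene with 1 sign in all 3 backgrounds. Leaving out either array of a background also gives the same protein difference. As the genes were selected on this contrast, these runs do not test the separation. Centring and quantile scaling kept 3 and 1.

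Over all probe sets, the 0 calls became 3 for sucrose with the 4 arrays of the contrast alone. With an array left out they ranged from 0 to 3 for sucrose, 0 to 17 for fat and 0 to 12 for both. The highest count was reached without NP-HS-HF for each, and for sucrose also without HP-HS-HF. Quantile scaling turned the combined effect of Car12 from -0.0056 to 0.013 and of Car3 from -0.0012 to 0.0080. Signs also turned with an array left out for sucrose in Car1 (-0.52 to 0.25), Car3 (-0.17 to 0.016), Car4 (-0.10 to 0.15) and Car8 (-0.068 to 0.051), for fat in Car4 (-0.082 to 0.16), and for both in Car12 (-0.22 to 0.21), Car3 (-0.094 to 0.092), Car4 (-0.048 to 0.17) and Car14 (-0.11 to 0.054). None of these was called, and the cause was not tested. The number of the 8 genes with an unadjusted p under 0.05 ranged from 0 to 2 for sucrose, 0 to 2 for fat and 1 to 2 for both with an array left out.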
